A study of Mus musculus with 9 samples.

Results

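Liver RNA of MUP-uPA mice was set against that of wild-type mice kept on the same high-fat diet, to describe which liver functions and which cell types differ with the transgene. The comparison took the 6 arrays of the MUP and WT groups, 3 each, out of the 9 arrays of the series, and every probe set that carries a gene symbol, 19610 of the 22206 tested, which stand for 19541 genes. MUP mice carry urokinase-type plasminogen activator (uPA) under the promoter of a major urinary protein gene, which is active in hepatocytes. WT mice were littermates without the transgene. Both groups were male C57BL/6 mice given the control treatment and sampled at 40 weeks of age, after long-term high-fat feeding. The tissue is described by the study as non-tumor liver, in MUP from animals that carried liver tumors, so transgene, long-standing liver injury and the presence of tumors elsewhere in the liver come together in this comparison and cannot be told apart. The other group of the series, MUP mice given honokiol (HNK), entered the fit only to estimate the spread between arrays.

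The liver is mostly hepatocytes, which differ along the lobule: cells near the portal vein carry out much of urea synthesis and amino acid breakdown, and cells near the central vein much of bile acid synthesis and drug oxidation. In mice the pattern of growth hormone release also sets many hepatocyte genes to a male or a female level. Between the hepatocytes lie Kupffer cells, which are resident macrophages, sinusoidal endothelial cells and stellate cells, the main source of scar collagen. In whole-tissue RNA, fewer cells of a type and less RNA per cell cannot be told apart.

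The arrays read as liver. The values are log2 intensities, in which a difference of 1 is a factor of 2, and arrays are always given in the order 1, 2 and 3. The albumin gene Alb had 19.75, 19.90 and 19.92 in MUP and 19.90, 19.93 and 19.93 in WT, near the top of the range of the arrays, and the hepatocyte transcription factor gene Hnf4a had 12.25, 12.34 and 12.26 in MUP and 12.26, 12.34 and 12.27 in WT. The median over all tested probe sets was 5.54 to 5.59 on the MUP arrays and 5.57 to 5.61 on the WT arrays. The median of the negative control probes was 5.04 to 5.10 in MUP and 4.91 to 5.04 in WT. This median is used here as the floor of detection, and below the negative controls means below it. The 95th percentile of those probes reached 8.61 on the highest of the 9 arrays, so values above the median can be background too. Plau, the mouse gene for uPA, had 4.96, 5.29 and 3.67 in MUP and 5.52, 5.49 and 5.87 in WT (limma adjusted p = 0.23). Whether its probes read the transgene is not stated, so Plau does not check the labels.

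1 array stood apart. MUP 2 carried a strong skeletal muscle signal, with a median log2 intensity of 11.12 over 32 muscle genes, against 4.17 to 4.52 on the other MUP and WT arrays. The results below are therefore also given without MUP 2 where that changes them, and a change is called stable only if it passed the test in the full fit and, in the same direction, in each of the 6 fits that left out 1 MUP or WT array.

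Of the 19541 genes, 307 were higher in MUP (1.57%) and 439 were lower (2.25%), called by limma where the adjusted p lay below 0.05, and 239 and 328 of these differed at least 2-fold. The stable changes were 85 higher and 115 lower genes. The counts over all probe sets, 320 higher and 474 lower, became 261 and 315 without MUP 2, 212 and 270 without MUP 1, 154 and 257 without MUP 3, 109 and 156 without WT 1, 163 and 232 without WT 2, and 125 and 146 without WT 3. Every MUP array lay above every WT array for 11.4% of genes and below for 12.5%, so that separation of the arrays alone was common. All counts of called or non-overlapping members in the lists below stand against these shares of all genes. The median log2 fold change of all genes was 0.01. With 3 arrays per group the smallest differences are missed, and the p-values measure the spread between these animals.

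**Figure D1:**
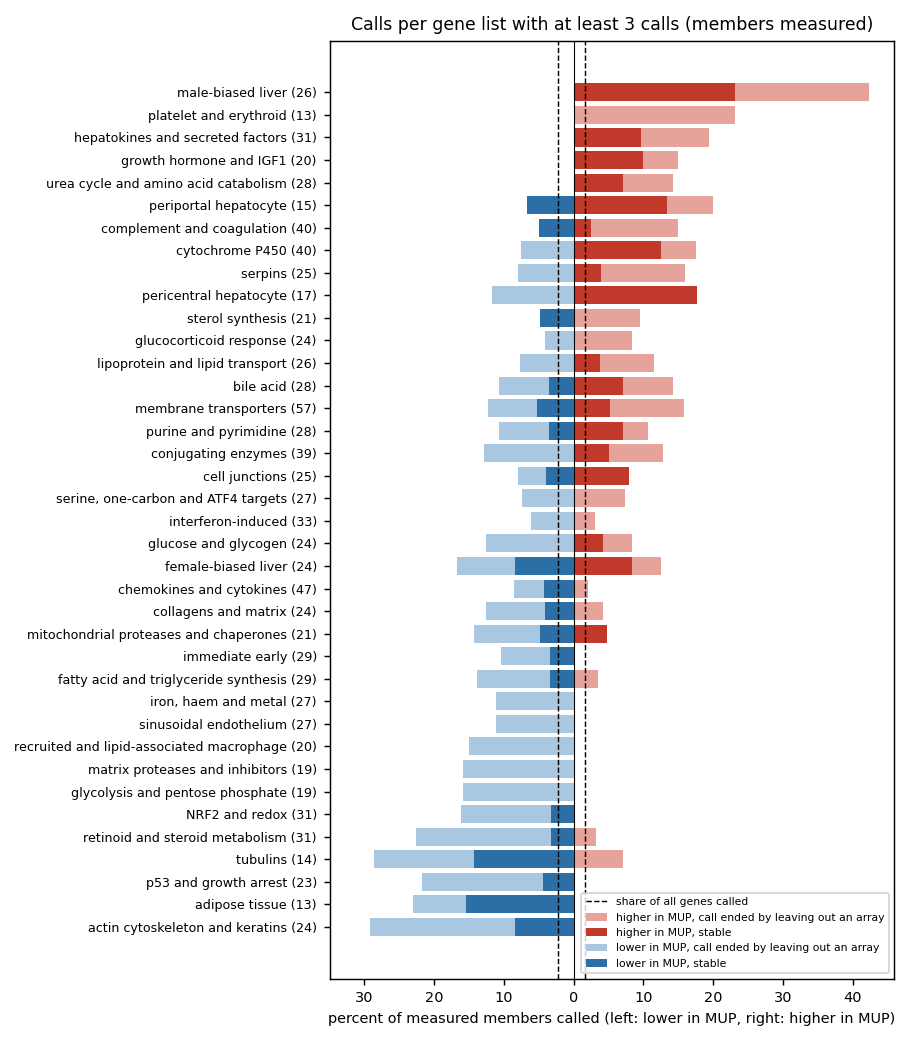
Share of measured members called in each gene list with at least 3 calls, to the right for genes higher in MUP and to the left for genes lower in MUP; dark bars are stable calls, pale bars calls that ended when 1 array was left out, dashed lines the shares over all genes (1.57% higher, 2.25% lower). Male-biased genes stand at the top with 11 of 26 higher, and cytoskeletal genes at the bottom with 7 of 24 lower; clock, acute-phase and PPAR-alpha lists are not drawn.

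The 12 largest stable increases came from genes of different roles. Cdh1, which encodes the adhesion protein E-cadherin, had 12.09, 11.88 and 11.17 in MUP, against 7.65, 7.40 and 7.96 in WT. Its log2 fold change was 4.04 (SE 0.25, limma adjusted p = 5.3e-05), and its highest adjusted p when 1 array was left out was 6.04e-04. The uridine phosphorylase gene Upp2, which breaks down uridine, had 15.63, 16.25 and 16.15 in MUP and 9.34, 12.88 and 11.70 in WT, a log2 fold change of 4.70 (SE 0.70). WT 1 was the lowest array by far, and the groups did not overlap. B3galt1, which encodes a galactosyltransferase, had 12.52, 12.74 and 13.48 in MUP and 9.73, 9.47 and 9.36 in WT (log2 fold change 3.39, SE 0.41). Gvin1, a very large interferon-inducible GTPase gene, had 13.06, 12.27 and 13.57 in MUP and 9.88, 8.34 and 9.29 in WT (3.80, SE 0.48). Some leading genes were not above the median of the negative controls on any WT array. Tff3, which encodes a trefoil peptide of mucous epithelia and bile ducts, had 7.74, 6.59 and 6.91 in MUP and lay under those controls in each WT sample (2.93, 3.38 and 2.93), so MUP was at least 4.27-fold higher. Gldn, which encodes gliomedin, an adhesion protein of nerve sheaths, had 7.34, 6.89 and 6.65 in MUP and 3.01, 3.51 and 3.43 in WT, at least 3.93-fold higher. Both bounds set each WT array to its own negative control median. The MUP values of both genes were below 8.61, the highest 95th percentile of those controls on any array.

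**Figure D2:**
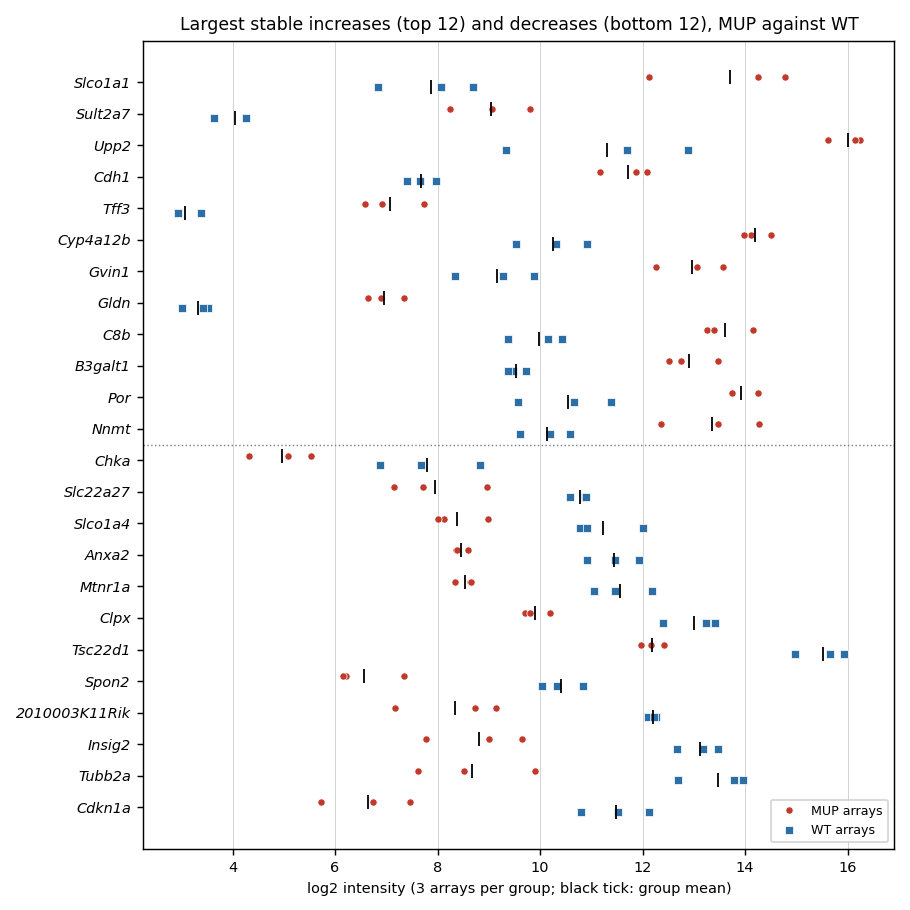
Log2 intensity of the 12 largest stable increases and the 12 largest stable decreases on each array, MUP (circles) above WT (squares) in each row, with black ticks for the group means (n = 3). No MUP array overlaps a WT array in any row; the WT values of Sult2a7, Tff3 and Gldn lie below the negative controls.

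Further stable increases outside the leading 12 were chosen here after their values were seen. Ttc39c, a gene with no role given here, had 16.14, 16.27 and 15.96 in MUP and 13.40, 12.99 and 13.51 in WT, with a log2 fold change of 2.82 and the small SE of 0.20. The fructose transporter gene Slc2a5 had 8.68, 8.33 and 9.09 in MUP, against 6.14, 6.50 and 6.25 in WT (2.40, SE 0.25). The aminoacylase gene Acy3 (2.34), the carboxylesterase gene Ces3b (2.18), the kynurenine aminotransferase gene Kyat1 (2.15) and Nampt, which encodes an enzyme of NAD synthesis (1.39), rose by these log2 fold changes. The apolipoprotein L genes Apol9a and Apol9b, close copies whose probe sets may share signal, had 1.98 (SE 0.17) and 1.84 (SE 0.22).

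Male-biased genes held the highest share of increases among the described lists. Lists and members were chosen with earlier results of these data known, so this ranking is a description and not a test. Of 26 measured genes known to be higher in male than in female mouse liver, 11 rose (42.3%), against 1.57% of all genes, none fell, and 6 of the rises were stable. The median log2 fold change of the list was 1.13, against 0.01 for all genes, and it was 0.65 without MUP 2. The number called was 6 without WT 1, 7 without WT 2 or WT 3, 8 without MUP 2 or MUP 3 and 10 without MUP 1. Slco1a1, a transporter of organic anions across the hepatocyte membrane, had the largest fold change of all stable genes. It had 12.13, 14.77 and 14.25 in MUP and 8.70, 8.06 and 6.84 in WT, with means of 13.72 ± 1.40 in MUP and 7.87 ± 0.94 in WT (SD, n = 3 each), a log2 fold change of 5.85 (SE 0.86, limma adjusted p = 0.0042). Cyp4a12b, a cytochrome P450 gene of fatty acid hydroxylation, had 14.12, 13.98 and 14.50 in MUP and 9.53, 10.30 and 10.92 in WT (3.95, SE 0.30). Cyp4a12a is also among the 11 rises, and the probe sets of these related genes may share signal. Serpina1e, 1 of the mouse genes for the protease inhibitor alpha-1-antitrypsin, had 18.84, 18.91 and 18.52 in MUP, against 15.71, 16.16 and 16.22 in WT (2.73, SE 0.23). Nudt7, which encodes a peroxisomal coenzyme A hydrolase, and Cyp2d9, a testosterone hydroxylase gene, had log2 fold changes of 2.50 (SE 0.41) and 1.55 (SE 0.18). The major urinary protein genes lay near the top of the range of the arrays, where differences can be compressed. Mup20 was at 19.75, 19.90 and 19.88 in MUP and 19.89, 19.81 and 19.88 in WT, and Mup21 at 18.22, 18.65 and 18.38 in MUP and 17.79, 17.70 and 17.43 in WT (0.78, a call that ended without MUP 2, MUP 3, WT 1, WT 2 or WT 3, adjusted p up to 0.16). Hsd3b5, a male-specific steroid dehydrogenase gene, was high only on MUP 2: it had 7.11, 13.57 and 8.47 in MUP and 5.84, 6.62 and 6.36 in WT (limma adjusted p = 0.22).

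Female-biased genes changed in both directions. Among 24 measured, 3 were called higher in MUP (12.5%, against 1.57% of all genes) and 4 lower (16.7%, against 2.25%). Only 7 had a higher mean in MUP, 11 lay wholly below WT and 3 wholly above (12.5% and 11.4% of all genes), and the median log2 fold change was -0.47. Slco1a4, the transporter gene next in family to Slco1a1 and higher in females, ran the other way from it, with 8.12, 8.01 and 8.99 in MUP and 10.77, 12.01 and 10.92 in WT (-2.86, SE 0.35, limma adjusted p = 0.0017). Cyp2b9, a P450 gene of female liver, had 15.01, 13.77 and 13.52 in MUP and 16.42, 16.91 and 16.55 in WT (-2.53). Its call ended without MUP 3, WT 1, WT 2 or WT 3 (limma adjusted p up to 0.071). The other falls were Cd36 (-1.49), also in the PPAR-alpha list, and Atp6v0d2 (-1.52), also in the recruited macrophage list. Cd36 was stable and Atp6v0d2 was not. Against this direction stood Cyp2a4, a steroid hydroxylase gene, with 13.48, 14.14 and 14.48 in MUP and 11.08, 11.35 and 11.15 in WT (2.84, SE 0.44), and Fmo2, which encodes a flavin monooxygenase, with 10.17, 10.41 and 10.53 in MUP and 8.79, 9.05 and 8.95 in WT (1.44, SE 0.20). All mice were male, so the lists describe known sex differences and not the sex of these animals.

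**Figure D3:**
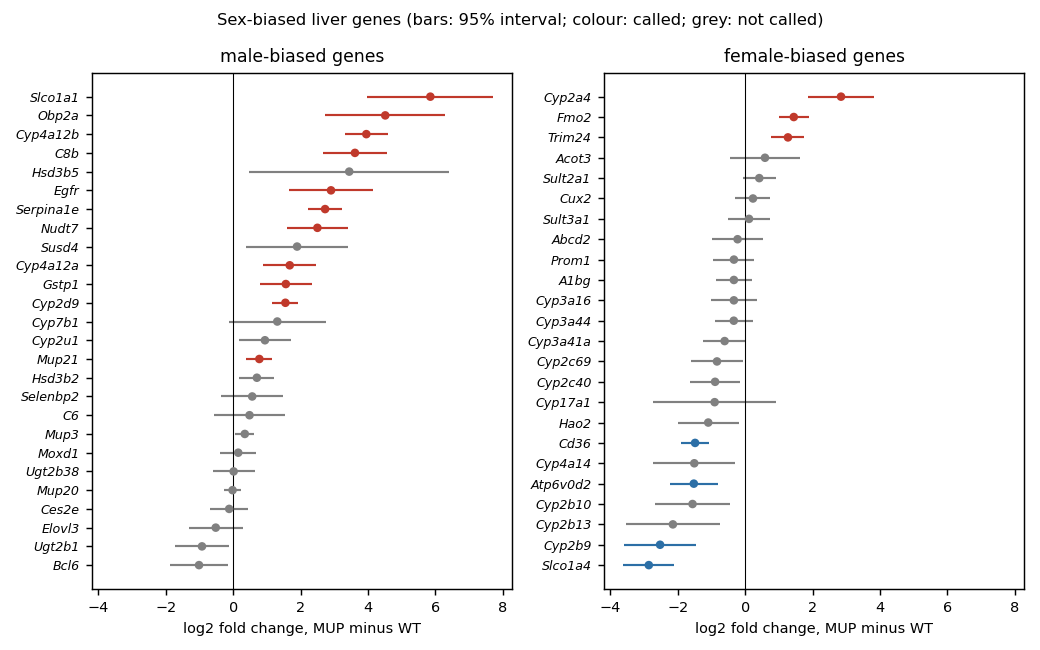
Log2 fold change, MUP minus WT, of the measured male-biased (left) and female-biased (right) liver genes with 95% intervals from limma; red genes rose, blue genes fell and grey genes were not called. On the left 11 of 26 genes are red and none is blue, and on the right 3 of 24 are red and 4 are blue.

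Of 20 measured genes of the growth hormone and IGF1 axis, 3 were called higher (1.57% of all genes) and none lower (2.25%). Separation of the arrays went both ways, with 5 members wholly above WT and 4 wholly below (11.4% and 12.5% of all genes). Of the 20 means 13 were higher in MUP, and the median log2 fold change was 0.21. Socs2, a growth hormone target that dampens its signal, had 9.15, 10.09 and 11.02 in MUP and 7.64, 7.56 and 7.64 in WT (2.47, SE 0.39, limma adjusted p = 0.0060). The WT arrays were almost level, and the MUP arrays spread more widely above them. Igfbp2, which encodes a secreted carrier of insulin-like growth factors, had 15.14, 15.90 and 14.52 in MUP, against 12.31, 12.81 and 11.58 in WT (2.96, SE 0.35). Igfals, which encodes the subunit that stabilises IGF1 in blood, had 1.98, a call that ended without MUP 3, WT 1 or WT 3 (limma adjusted p up to 0.072).

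Secreted and receptor genes held increases only among their calls. Of 31 measured hepatokines and secreted factors 6 rose (19.4%, against 1.57% of all genes) and none fell. Of the 31 means 18 were higher in MUP, and the calls numbered 3 without WT 1 and 4 without WT 3 or MUP 3. Lifr, the receptor gene for leukemia inhibitory factor, had 12.47, 13.88 and 13.40 in MUP and 11.05, 10.56 and 10.86 in WT (2.43, SE 0.38). Fetub, which encodes the protease inhibitor fetuin-B, had 14.86, 14.61 and 14.65 in MUP, against 12.63, 13.51 and 13.26 in WT (1.57, SE 0.24). Of 40 complement and coagulation genes, 6 rose and 2 fell, but only 1 rise was stable. C8b, which encodes a chain of the membrane attack complex, had 13.26, 13.38 and 14.15 in MUP and 10.16, 9.38 and 10.42 in WT (3.61, SE 0.43, limma adjusted p = 0.0016). Cd59a, whose product blocks that same complex on the cell surface, fell, with 13.32, 13.29 and 13.36 in MUP and 15.25, 15.03 and 14.92 in WT (-1.74, SE 0.19). C1s1, a protease gene of the first complement component, lay between 13.92 and 14.16 in MUP and between 14.97 and 15.18 in WT (-1.03, SE 0.16). The other 5 rises were C2, F7, C4b, Serpinf2 and C1ra, with log2 fold changes of 0.97 to 1.33, and their number fell to 0 without MUP 3 or WT 1. Of 25 serpins, 4 rose and 2 fell. Serpina7, the thyroxine carrier gene, had 12.03, 11.24 and 12.84 in MUP and 14.96, 13.92 and 14.44 in WT (-2.40), a call that ended without WT 1 (limma adjusted p = 0.0503).

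Cytochrome P450 genes and partners changed in both directions. Of 40 measured, 7 rose, 5 of them stable, and 3 fell. All MUP arrays lay above all WT arrays for 11 of them (11.4% of all genes) and below for 12 (12.5% of all genes). The median log2 fold change was -0.03, and 19 of the 40 means were higher in MUP. The median level of the list was 12.96, 13.44 and 13.05 in MUP and 11.41, 11.52 and 11.23 in WT. A list median follows the members at the middle rank, so that gap is not a shift of the whole list. Por, which encodes the reductase that hands electrons to all microsomal P450 enzymes, had 13.75, 13.75 and 14.26 in MUP and 9.58, 11.39 and 10.67 in WT (3.38, SE 0.38, limma adjusted p = 0.0011). Cyp2a5, the coumarin hydroxylase gene and a near-identical copy of Cyp2a4, had 17.04, 18.09 and 17.59 in MUP, against 15.36, 15.16 and 15.04 in WT (2.38, SE 0.28). Signal of these copies may be shared between their probe sets. Cyp1a2, which oxidises caffeine, had 15.07, 16.01 and 14.81 in MUP and 13.52, 13.13 and 13.22 in WT (2.01, SE 0.28). Outside the list, the related genes Cyp2d11, Cyp2d12 and Cyp2d13 also rose (1.46, 1.27 and 0.94), and they are close copies of Cyp2d9.

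Conjugating enzymes changed in both directions. Of 39 measured, 5 rose and 5 fell. Sult2a7, a sulfotransferase gene for hydroxysteroids and bile acids, had 8.24, 9.79 and 9.06 in MUP and lay under the negative controls in each WT sample (4.26, 3.63 and 4.26), at least 16.5-fold higher in MUP (limma adjusted p = 0.0060). Nnmt, which methylates nicotinamide, had 13.47, 12.35 and 14.27 in MUP and 9.60, 10.20 and 10.59 in WT (3.23, SE 0.47). Of the glutathione S-transferase genes 5 were called. Gstp1 and Gstp2, close copies, had log2 fold changes of 1.56 and 1.71, while Gstm3, Gsta2 and Gstm2 had -3.15, -2.60 and -2.02, and each of these 5 calls ended without WT 1, WT 2 or WT 3, without MUP 2 and without MUP 1 (limma adjusted p up to 0.16), as did those of Gstm3 and Gsta2 without MUP 3. Of 31 genes of the NRF2 and redox list, 5 fell and none rose, and 1 fall was stable. Gclc, which encodes the catalytic subunit for glutathione synthesis, had 14.37, 14.47 and 13.62 in MUP and 16.32, 16.12 and 16.04 in WT (-2.01, SE 0.32, limma adjusted p = 0.0062).

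Membrane transporters were the largest list, with 57 measured, and 9 rose while 7 fell. Besides Slco1a1, the stable rises were Slc43a1, an exporter of large neutral amino acids, with 7.99, 7.77 and 8.44 in MUP and 6.17, 5.43 and 4.83 in WT (2.59, SE 0.44), and the glutamine transporter gene Slc38a3, with 17.75, 17.60 and 17.70 in MUP and 15.96, 16.80 and 16.75 in WT (1.18, SE 0.22, limma adjusted p = 0.013). The stable falls besides Slco1a4 were Slc22a27, an organic anion transporter gene, with 8.96, 7.14 and 7.71 in MUP and 10.88, 10.90 and 10.58 in WT (-2.85, SE 0.49), and Slc17a4, a urate and phosphate transporter gene, with 8.86, 7.67 and 8.66 in MUP and 10.78, 11.06 and 11.04 in WT (-2.56, SE 0.38). The rises numbered 3 without MUP 3 or WT 3, 4 without WT 1 and 6 without WT 2, and the falls 4 without WT 1 or WT 3.

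Among bile acid genes Cyp7a1, the rate-limiting enzyme gene of synthesis, had 16.08, 16.88 and 16.57 in MUP and 13.72, 13.54 and 13.48 in WT, a log2 fold change of 2.93 (SE 0.45, limma adjusted p = 0.0055). Besides the transporter genes Slco1a1 and Slco1a4, the other calls were smaller. Akr1d1, a reductase of the pathway, had 0.94 and the betaKlotho gene Klb 0.93, while Hsd3b7 had -0.98 and Baat, which couples bile acids to taurine, -0.99. The call of Hsd3b7 ended without WT 3 (limma adjusted p = 0.051), and those of Akr1d1, Klb and Baat without each WT array, without MUP 1, without MUP 2 for Klb and Baat and without MUP 3 for Akr1d1 and Klb (up to 0.18). Of 28 bile acid genes 4 rose and 3 fell in all.

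Of 17 central-vein genes, 3 rose, all stable, and 2 fell, Aldh1a1 and Gulo, neither stable. No fall was called without MUP 1 or without any 1 of the WT arrays. Besides Cyp7a1 and Cyp1a2, the gene that rose was Slc1a2, which encodes a glutamate transporter. It had 13.73, 14.44 and 14.63 in MUP, against 11.53, 11.98 and 11.59 in WT (2.56, SE 0.26, limma adjusted p = 6.3e-04). Of 15 portal-vein genes, 3 rose and 1 fell. Hal, which starts histidine breakdown, had 15.73, 15.43 and 15.48 in MUP and 13.21, 13.80 and 12.87 in WT (2.25, SE 0.25). Hsd17b13, a lipid droplet enzyme gene, had 18.09, 18.00 and 17.91 in MUP and 18.86, 19.17 and 19.06 in WT (-1.03, SE 0.14). In the list of urea cycle and amino acid breakdown 4 of 28 genes rose, none fell, and 22 had a higher mean in MUP. Prodh, which oxidises proline, had 13.04, 12.14 and 13.32 in MUP, against 10.69, 10.78 and 10.58 in WT (2.15, SE 0.32). Cps1, the first enzyme gene of the urea cycle, had 16.77, 16.71 and 17.12 in MUP and 15.54, 15.48 and 15.87 in WT (1.24, SE 0.22), a call that ended without WT 1 (limma adjusted p = 0.056). Gnmt, which spends methyl groups on glycine, had 1.25, a call that ended without MUP 1, WT 1 or WT 3 (up to 0.090). The number of calls in this list was 7 without MUP 2 and 2 without WT 1.

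Purine and pyrimidine breakdown genes changed in both directions, with 3 of 28 higher and 3 lower. Beside Upp2, the guanine deaminase gene Gda had 12.23, 11.96 and 11.82 in MUP and 10.25, 10.68 and 10.43 in WT (1.55, SE 0.20, limma adjusted p = 0.0026). Nt5e, which encodes the surface enzyme CD73 that makes adenosine, had 4.58, 4.90 and 4.93 in MUP, all below the negative controls, and 7.64, 7.09 and 7.27 in WT, so it was at least 4.83-fold lower in MUP.

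Among the decreases, the cell cycle inhibitor gene Cdkn1a, which encodes p21, was the largest stable fall outside the PPAR-alpha genes. It had 6.74, 5.73 and 7.47 in MUP and 10.79, 11.52 and 12.13 in WT, a log2 fold change of -4.84 (SE 0.43, limma adjusted p = 2.9e-04). Every MUP array lay far below every WT array. Of 23 genes of p53 and growth arrest, 5 fell and none rose (21.7%, against 2.25% of all genes). In MUP 19 had a lower mean, and 10 had all MUP arrays below all WT arrays, against 12.5% of all genes. Only Cdkn1a was stable: the others were Trp53inp1 (-1.37), Tnfrsf10b (-1.21), Mdm2 (-1.03) and Ei24 (-0.78), and the list held 1 call without MUP 1, WT 2 or WT 3, 2 without MUP 3, 3 without MUP 2 and 4 without WT 1. Tnfrsf10b was below the negative controls on all 6 arrays. Dividing-cell genes were near the floor of detection, with a list median of 5.38, 5.27 and 5.24 in MUP and 5.82, 5.65 and 6.05 in WT. Of 28 measured, 2 fell, none rose, 23 had a lower mean in MUP, and 15 did not overlap, against 12.5% of all genes. Kif20a, a kinesin gene of cell division, had 4.67, 4.84 and 4.73 in MUP, below the negative controls, and 6.12, 6.00 and 6.22 in WT, at least 2.08-fold lower in MUP. The division genes Cdkn3 and Cdca3, which are in no list, were at least 1.60-fold and 2.44-fold lower.

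Immediate early genes, which answer stimuli within minutes, were lower where they were called. Of 29 measured, 3 fell (10.3%, against 2.25% of all genes) and none rose. Jun, a subunit of the transcription factor AP-1, had 7.07, 7.07 and 6.81 in MUP and 9.18, 9.44 and 8.87 in WT (-2.18, SE 0.24, limma adjusted p = 9.5e-04). Klf6 (-2.08) and Dusp1 (-2.07) lost their calls without WT 3 and WT 1 (limma adjusted p = 0.058 each). Among 47 chemokines, cytokines and their receptors, 4 fell and 1 rose. Tnfrsf12a, the receptor gene for the cytokine TWEAK, had 7.61, 7.55 and 7.08 in MUP, against 9.40, 9.58 and 9.07 in WT (-1.94, SE 0.24), and Il1a, which encodes interleukin 1 alpha, had 5.94, 5.52 and 5.86 in MUP and 7.77, 7.33 and 7.34 in WT (-1.71, SE 0.23). Ccl2, the monocyte chemokine gene, had 5.84, 5.51 and 5.76 in MUP and 7.04, 7.18 and 7.03 in WT (-1.38), a call that ended without WT 3 (limma adjusted p = 0.0503).

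The cytoskeletal lists held the highest shares of decreases among the described lists, which were chosen with earlier results of these data known. Of 14 tubulin genes, 4 fell (28.6%) and 1 rose, and of 24 genes of actin, annexins and keratins, 7 fell (29.2%) and none rose, against 2.25% of all genes. Tubb2a, a beta-tubulin gene, had 9.91, 7.62 and 8.51 in MUP and 13.96, 12.68 and 13.78 in WT (-4.79, SE 0.64, limma adjusted p = 0.0029). Tubb6 had 5.73, 6.01 and 5.16 in MUP and 7.77, 7.42 and 7.97 in WT (-2.09, SE 0.30). Tubulin genes are close copies, and Tubb5 (-1.59) and Tubb4b (-1.37) lost their calls without MUP 2, MUP 3, WT 1 or WT 3 (up to 0.13). Anxa2, which encodes a membrane-bound annexin, had 8.36, 8.39 and 8.59 in MUP, against 11.92, 10.92 and 11.46 in WT (-2.99, SE 0.36). S100a10, whose product binds annexin A2, fell too, between 10.74 and 11.60 in MUP and between 12.88 and 13.56 in WT (-2.03, SE 0.27). Anxa5 had 12.53, 11.97 and 13.01 in MUP and 15.21, 15.01 and 15.19 in WT (-2.64, SE 0.42). The remaining 5 falls, Tagln2, Myl12a, Tax1bp3, Krt8 and Tpm4, had -0.92 to -1.73, and the actin list held 2 or 3 calls whenever 1 array was left out. In no list but stable were also the septin genes Septin4 (-2.04) and Septin9 (-1.37), the integrin partner gene Fermt2 (-1.80) and the actin capping gene Capza1 (-1.25).

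Cell junction genes changed one by one, with 2 of 25 higher and 2 lower. Besides Cdh1, the protocadherin-like gene Cdhr5 had 12.01, 11.30 and 12.04 in MUP and 10.30, 9.95 and 10.19 in WT (1.64, SE 0.24, limma adjusted p = 0.0042). The tight junction gene Cldn1 had 10.60, 10.44 and 10.66 in MUP, against 12.79, 11.83 and 11.90 in WT (-1.61, SE 0.24). Cldn2 had -1.50, and its call ended without MUP 1, MUP 2, WT 1, WT 2 or WT 3 (up to 0.12).

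Of 16 heat shock genes 2 fell and none rose. The small chaperone gene Hspb1 had 7.63, 7.54 and 6.76 in MUP and 9.49, 9.79 and 9.17 in WT (-2.18, SE 0.29, limma adjusted p = 0.0030). Hsp90aa1, the inducible HSP90 gene, had 14.06, 13.75 and 14.22 in MUP and 15.43, 15.27 and 15.44 in WT (-1.37, SE 0.17). The promoter of Hspb1 is shown because it holds a pair of the elements bound by heat shock factors. It is the RefSeq promoter of build GRCm38.p6, chr5:135887669-135887968, plus strand, from 250 bases before the start to 50 after, with matches to GAANNTTC in capitals (the motif reads the same on both strands). The matches do not overlap each other.
Hspb1: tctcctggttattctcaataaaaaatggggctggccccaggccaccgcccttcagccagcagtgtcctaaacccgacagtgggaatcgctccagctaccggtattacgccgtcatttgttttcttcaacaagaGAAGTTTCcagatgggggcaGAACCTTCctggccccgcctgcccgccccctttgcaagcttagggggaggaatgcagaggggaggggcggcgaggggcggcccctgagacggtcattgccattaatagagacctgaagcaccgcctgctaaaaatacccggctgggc
They begin 117 and 97 bases before the start. Of the 14 heat shock genes with a promoter in the table, 8 held at least 1 match (57.1%), against 8.10% of 15710 genes on the array. The list holds known heat shock genes, so that share says nothing about MUP. Among genes with a stable fall the share was 7.29% (7 of 96), and with a stable rise 1.75% (1 of 57). Hsp90aa1 had no promoter there to search. Of the 8 heat shock genes with a match, only Hspb1 was called. Among the others Hspa1a had a log2 fold change of 0.05, Bag3 0.27 and Hspb8 -0.13. A match is a description of letters and not a site.

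Mitochondrial quality control held opposite changes. Clpx, which encodes the unfolding subunit of a matrix protease, had 9.71, 9.81 and 10.19 in MUP and 13.41, 12.39 and 13.23 in WT (-3.11, SE 0.32, limma adjusted p = 7.4e-04). Hspa9, the main matrix chaperone gene, had 13.76, 13.83 and 13.72 in MUP, against 12.12, 12.59 and 12.60 in WT (1.33, SE 0.18). Of 21 such genes 1 rose and 3 fell, and of 28 respiratory chain genes 2 fell, Sdha (-1.50) and Uqcrc2 (-0.90). The call of Sdha ended without WT 3 (0.057) and that of Uqcrc2 without MUP 1, MUP 2, WT 1, WT 2 or WT 3 (up to 0.11). Of 18 citrate cycle genes none was called in the full fit, 2 were lower without MUP 2 and 4 without MUP 2 and HNK 3. Wholly below WT lay 6 of them, against 12.5% of all genes. Ghitm, an inner membrane protein gene in no list, had 11.34, 11.99 and 12.42 in MUP and 14.35, 14.04 and 14.24 in WT (-2.30, SE 0.25).

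Outside the PPAR-alpha list, lipid and sterol genes changed in single members and in both directions. That list, which is not described here, held 9 falls (24.3%, against 2.25% of all genes) and no rise among 37 genes. Of 21 sterol genes 2 rose and 1 fell, of 29 genes of fatty acid and triglyceride synthesis 1 rose and 4 fell, and of 26 lipoprotein and lipid transport genes 3 rose and 2 fell. Insig2, whose product holds the sterol sensor SCAP in the endoplasmic reticulum, had 9.0, 7.78 and 9.65 in MUP and 13.48, 12.68 and 13.18 in WT, a log2 fold change of -4.31 (SE 0.40, limma adjusted p = 4.1e-04). The rises of the sterol list were Sqle (2.68) and Hsd17b7 (1.27), and Sqle spread from 7.26 to 10.48 over the MUP arrays. Both calls ended without MUP 1, WT 1, WT 2 or WT 3, and that of Sqle also without MUP 2 (up to 0.16). Chka, a kinase gene of phosphatidylcholine synthesis, had 4.32, 5.52 and 5.07 in MUP, against 8.82, 6.87 and 7.67 in WT (-2.82, SE 0.46). Pparg, the lipid storage regulator gene, had 8.71, 7.66 and 8.50 in MUP and 10.65, 10.68 and 10.18 in WT (-2.21, SE 0.31), and was 1 of 2 lower among 30 nuclear receptors. Mogat1, a triglyceride synthesis gene (-2.07), and Apoa4, an apolipoprotein gene (-1.65), lost their calls without MUP 2, MUP 3, WT 1, WT 2 or WT 3 (up to 0.12). Pltp, a phospholipid transfer protein gene, had 9.96, 7.87 and 8.13 in MUP and 10.79, 11.70 and 12.33 in WT (-2.95), a call that ended without MUP 3 or WT 3 (up to 0.065). Dgat2, the last enzyme gene of triglyceride synthesis, was higher (1.09), a call that ended without WT 1 or WT 3 (up to 0.058), as were the sorting receptor gene Sort1 (1.27) and the sterol exporter gene Abcg8 (1.15), whose calls ended without MUP 1, WT 1 or WT 3, and also without MUP 2 or WT 2 for Sort1 and MUP 3 for Abcg8 (up to 0.17). Lrp1, an uptake receptor gene for lipoprotein remnants, was higher, with 14.25, 14.12 and 14.70 in MUP and 12.72, 12.79 and 13.30 in WT (1.42, SE 0.23), as was the liver glycogen synthase gene Gys2, with 12.09, 12.45 and 12.05 in MUP and 10.68, 11.09 and 10.62 in WT (1.40, SE 0.20). Glycogen branching (Gbe1, -1.26) and glucose release (G6pc, -1.30) had lower means, with calls that ended without MUP 2, MUP 3 or any WT array (up to 0.14).

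Retinoid and steroid metabolism held 7 decreases among 31 genes and 1 increase. Dhrs4, a retinal reductase gene, had 12.49, 12.89 and 12.67 in MUP and 14.12, 14.52 and 14.02 in WT (-1.54, SE 0.22, limma adjusted p = 0.0034). Rdh7, Rdh16 and Aldh1a1, which act between retinol and retinoic acid, had -0.86, -0.86 and -0.60, and the related gene Aldh1a7 had -0.81. These small falls each ended without WT 3 and, apart from Rdh7, without MUP 1, WT 1 or WT 2 (limma adjusted p up to 0.17). The number of falls in the list was 1 without WT 3 and 3 without WT 1. Rarb, a retinoic acid receptor gene, had 6.01, 6.00 and 6.29 in MUP, against 7.61, 7.01 and 8.13 in WT (-1.49), a call that ended without WT 1 or WT 3 (up to 0.061).

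Among other stable decreases, Tsc22d1, a transcriptional regulator gene, had 11.97, 12.16 and 12.43 in MUP and 15.92, 15.67 and 14.97 in WT (-3.33, SE 0.34, limma adjusted p = 6.3e-04). Mtnr1a, a melatonin receptor gene, had 8.63, 8.34 and 8.66 in MUP, against 12.18, 11.46 and 11.06 in WT (-3.02, SE 0.27). The imprinted gene Mest had 6.06, 6.26 and 5.71 in MUP and 8.92, 8.91 and 8.35 in WT (-2.72, SE 0.30), and 2010003K11Rik, a gene whose role is not given here, had 8.72, 7.16 and 9.14 in MUP and 12.11, 12.27 and 12.23 in WT (-3.86, SE 0.51). The ubiquitin ligase gene Rnf125 (-2.48), the ferritin receptor gene Ncoa4 (-1.42) and the histamine-degrading gene Hnmt (-1.79) fell by these log2 fold changes.

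Resident macrophage markers had lower means in MUP with few single calls. Of 18 Kupffer cell genes, 17 had a lower mean in MUP and 11 had every MUP array below every WT array, against 12.5% of all genes. The list median was 10.23, 8.40 and 10.25 in MUP and 10.87, 10.70 and 11.97 in WT, so the groups did not overlap, and MUP 2 was lowest and WT 3 highest. The median log2 fold change was -1.24, and -0.81 without MUP 2. Only Folr2 (-2.74) and Adgre1, a macrophage surface receptor gene (-1.95), passed the test. Folr2 lost its call without MUP 1, MUP 2, MUP 3, WT 1 or WT 3 (up to 0.10), and Adgre1 without any WT array, MUP 2 or MUP 3 (up to 0.13). Among the defining markers, Vsig4 had 11.33, 9.15 and 11.26 in MUP and 12.47, 12.39 and 13.96 in WT (limma adjusted p = 0.089), Clec4f 10.08, 7.77 and 10.52 in MUP and 11.21, 10.01 and 13.25 in WT (0.28), and Timd4 7.28, 6.91 and 7.04 in MUP and 5.94, 8.95 and 6.98 in WT (0.90). Cd207, a lectin gene of Langerhans and some macrophage cells, had 5.56, 4.78 and 5.60 in MUP and 7.77, 6.98 and 9.55 in WT (-2.79, SE 0.52) and was stable. Among recruited macrophage genes 3 of 20 fell, with Mmp12, the macrophage elastase gene, at 7.72, 5.36 and 8.91 in MUP and 12.70, 10.97 and 12.52 in WT (-4.73, SE 0.98), a call that ended without MUP 1, MUP 2, WT 1 or WT 3 (up to 0.10).

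Sinusoidal endothelial genes also had mostly lower means. Of 27 measured, 23 had a lower mean in MUP, 12 had every MUP array below every WT array (12.5% of all genes), and 3 fell (11.1%, against 2.25%), Plvap (-1.64), Fcgr2b (-1.29) and Rspo3 (-1.25). The list median was 7.97, 7.24 and 7.72 in MUP and 8.64, 8.60 and 8.19 in WT, and the median log2 fold change was -0.56, or -0.52 without MUP 2. All 3 calls ended without MUP 2, WT 1 or WT 3 (up to 0.18), and the defining markers Stab2 and Kdr had log2 fold changes of -0.48 and -0.08 (limma adjusted p = 0.48 and 0.92).

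Few matrix and stellate genes were called. Of 24 collagen and matrix genes, 3 fell and 1 rose, with a median log2 fold change of 0.02. Spon2, which encodes a secreted matrix protein, had 7.34, 6.22 and 6.15 in MUP and 10.83, 10.04 and 10.33 in WT (-3.83, SE 0.57, limma adjusted p = 0.0045). Fn1, the fibronectin gene, had 16.14, 15.64 and 16.23 in MUP, against 14.74, 14.94 and 15.05 in WT (1.09), a call that ended without WT 1 (0.054). Of 20 stellate and portal fibroblast genes 2 fell, 7 had a higher mean in MUP, and 7 had every MUP array below every WT array, against 12.5% of all genes. The median log2 fold change of that list was -0.40, and -0.55 without MUP 2. Colec11, a collectin gene of stellate cells, had 6.60, 5.82 and 6.05 in MUP and 8.20, 7.62 and 7.63 in WT (-1.66, SE 0.27). The stellate marker Lrat, an enzyme gene of retinoid storage, had 8.35, 7.79 and 8.11 in MUP and 8.71, 8.36 and 9.25 in WT (limma adjusted p = 0.20), and Des, another marker of these cells and of muscle, was high on MUP 2 alone (4.21, 10.73 and 4.24 in MUP, 4.25, 4.72 and 4.67 in WT).

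**Figure D4:**
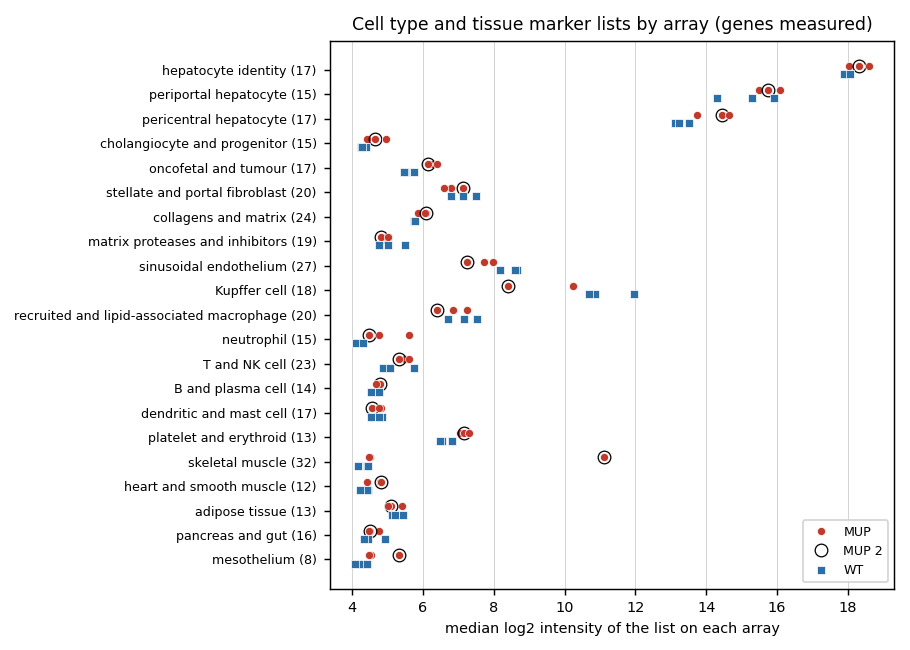
Median log2 intensity of each cell type or tissue marker list on each MUP (circles) and WT (squares) array, with a ring round MUP 2. The Kupffer cell and sinusoidal endothelial medians of MUP lie left of those of WT, and MUP 2 departs from all other arrays in the skeletal muscle list (11.12).

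Blood cell lists had no call except in red cells. None of 15 neutrophil, 23 T and NK cell, 14 B and plasma cell or 17 dendritic and mast cell genes was called. At the shares called over all genes, 1.57% higher and 2.25% lower, lists of this size can hold none. The neutrophil list median was 5.62, 4.48 and 4.75 in MUP and 4.12, 4.12 and 4.31 in WT. It was highest on MUP 1, the only one of these arrays where it lay above the negative control median. S100a8, a calcium-binding protein of neutrophils, had 8.58, 5.33 and 5.34 in MUP and 4.64, 3.88 and 4.24 in WT (limma adjusted p = 0.11). Ngp, a granule protein gene, had 9.03, 4.41 and 4.78 in MUP and 3.32, 3.22 and 4.05 in WT (0.17 from limma). Both genes lay below the negative controls on every WT array, as did Ngp on MUP 2 and MUP 3. Of 13 platelet and red cell genes 3 rose, the near-identical globin genes Hba-a1 (1.33) and Hba-a2 (1.40), and Alas2, the haem synthesis gene of red cells (1.27). Their calls ended without MUP 1 or WT 3, those of the globins also without MUP 2, MUP 3 or WT 1 and that of Alas2 without WT 2 (up to 0.16).

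The remaining metabolic and response lists held few calls, and apart from 2 adipose genes none of these calls was stable. Of 27 iron, haem and metal genes 3 fell and none rose. The manganese exporter gene Slc30a10 had 7.44, 8.13 and 8.29 in MUP and 9.52, 9.11 and 9.57 in WT (-1.45), and Hfe, the haemochromatosis gene that senses iron, 8.56, 8.49 and 8.55 in MUP and 9.63, 9.45 and 9.60 in WT (-1.03). Both calls ended without WT 1 or WT 3 (limma adjusted p up to 0.059). Of 21 lysosome genes 2 fell, among them Lipa, the lysosomal lipase gene (-1.48, ended without WT 1 or WT 3, up to 0.058), and of 19 glycolysis and pentose phosphate genes 3 fell, Pgd (-1.15), Pgam1 (-0.94) and Gapdh (-0.66), of which at most 1 was called when any 1 array was left out. Among 27 genes of serine and one-carbon metabolism and ATF4 targets, 2 rose and 2 fell. Asns, which makes asparagine, had 9.09, 9.92 and 8.0 in MUP and 6.90, 6.98 and 6.60 in WT (2.18, ended without MUP 1, MUP 2 or any WT array, up to 0.16), and the stress-response factor gene Atf5 ran the other way (-1.46, ended without WT 1, 0.058). Of 33 interferon-induced genes 1 rose, Ifi27 (1.62), and 2 fell, Rsad2 (-1.66) and Usp18 (-1.02). The counts were 2 higher and 1 lower of 24 glucocorticoid response genes, 1 and 1 of 23 YAP and Wnt targets, 1 and 1 of 32 phospholipase, sphingolipid and eicosanoid genes, and 0 and 3 of 19 matrix proteases and inhibitors. Of 13 adipose genes 3 fell, with Pparg (-2.21) and Cidea (-4.88), a PPAR-alpha target, stable, while the fat cell markers Adipoq, Lep and Plin1 were below the negative controls on all 6 arrays. Pancreas and gut (16), heart and smooth muscle (12) and mesothelium (8) genes held no call, and the mesothelium median was 4.52, 5.33 and 4.48 in MUP and 4.24, 4.44 and 4.09 in WT, highest on MUP 2.

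Several functions showed no call at all. Over all genes, only 1.57% were called higher and 2.25% lower. At those shares a list of this size can hold no call, so an absence does not set it apart. None of 17 oncofetal and tumor genes was called. Of these, 3 lay wholly above WT and 4 wholly below (11.4% and 12.5% of all genes). The largest difference was a lower level of Ly6d, with means of 8.77 in MUP and 12.25 in WT and no overlap. Its log2 fold change was -3.47 (SE 1.06, limma adjusted p = 0.11). The alpha-fetoprotein gene Afp, a marker of fetal and tumor hepatocytes, had 7.20, 4.97 and 5.38 in MUP and 5.04, 5.76 and 5.14 in WT (limma adjusted p = 0.63), and Gpc3, the glypican-3 gene, had 5.10, 6.14 and 5.16 in MUP and 3.88, 4.53 and 4.19 in WT, with all WT arrays below the negative controls, at least 1.40-fold higher in MUP (limma adjusted p = 0.067). None of 29 endoplasmic reticulum folding genes was called, a process that uPA strains in hepatocytes of younger MUP-uPA mice. Of that list, 16 had a higher and 13 a lower mean in MUP, with a median log2 fold change of 0.08. The largest difference was in Herpud1, with 16.82, 16.86 and 16.68 in MUP and 14.32, 16.80 and 16.67 in WT, where WT 1 alone was low. None of 17 proteasome, 19 ribosomal protein or 22 antigen presentation genes was called either. The bile duct markers Krt19 (3.38, 4.08 and 3.16 in MUP, 3.19, 3.91 and 3.25 in WT) and Epcam (4.28, 4.54 and 4.70 in MUP, 4.10, 4.0 and 3.68 in WT) were below the negative controls on all 6 arrays, and Tff3 was the 1 call among 15 genes of that list.

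The skeletal muscle signal of MUP 2 reached 32 of 32 muscle genes, each higher there than on any other MUP or WT array, and 28 of them by at least 2 log2 units. Myh4, a fast myosin gene, had 3.86, 15.77 and 4.05 in MUP and 3.67, 3.80 and 3.40 in WT. The skeletal actin gene Acta1 had 5.14, 15.03 and 5.51 in MUP and 5.80, 5.71 and 5.29 in WT, and Tnnt3, a fast troponin gene, 4.93, 15.01 and 5.70 in MUP and 5.69, 5.89 and 5.37 in WT. Without MUP 2, the median log2 fold change of the list was 0.22, against 2.46 with it. None of these genes was called (smallest adjusted p = 0.16 from limma, 3 of 32 at an unadjusted p under 0.05). In the heart and smooth muscle list, the median was 4.79, 4.81 and 4.42 in MUP and 4.45, 4.43 and 4.21 in WT. Within it, the heart myosin gene Myh6 had 4.67, 4.37 and 4.47 in MUP and 4.20, 4.45 and 3.92 in WT, all below the negative controls, and Synpo2, an actin-binding protein gene of muscle, 4.42, 7.52 and 4.38 in MUP and 4.40, 4.14 and 4.5 in WT. In all, 115 genes lay at least 2 log2 units higher on MUP 2 than on each other MUP and WT array, against 5 on MUP 1, 1 on WT 2, 1 on WT 3 and none on MUP 3 or WT 1. Of the 115 only Obp2a, a lipocalin gene of the male-biased list, was called, with 8.39, 11.52 and 9.47 in MUP and 5.08, 6.04 and 4.73 in WT (4.51), and its call ended without WT 1 or WT 3 (up to 0.062). On MUP 2, 11 genes lay at least 2 log2 units lower than on each other array, among them Igfbp1 (9.35, 6.28 and 9.40 in MUP, 9.80, 10.90 and 11.28 in WT) and the lipid droplet gene Cidec (10.30, 6.64 and 10.01 in MUP, 10.83, 11.33 and 10.73 in WT). The part of the muscle signal in the other differences of MUP 2 was not tested.

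**Figure D5:**
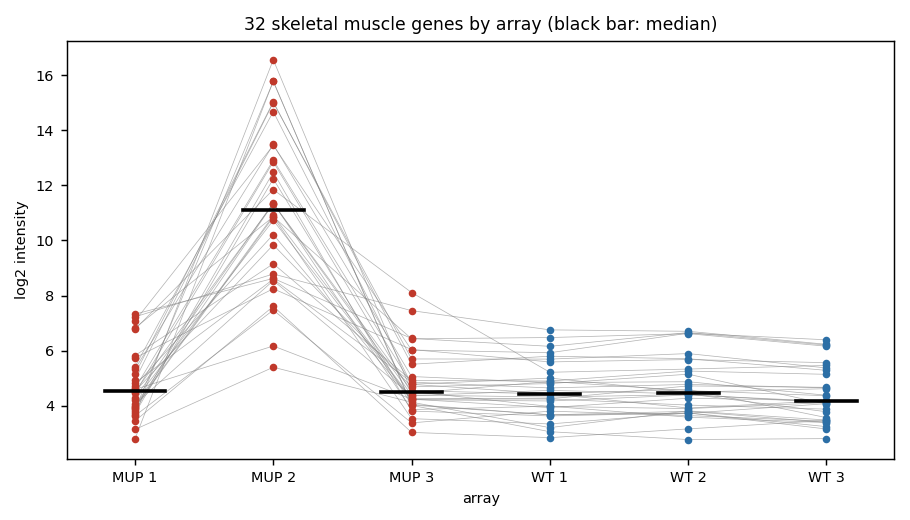
Log2 intensity of the 32 skeletal muscle genes on each MUP and WT array, with 1 point and line per gene and a black bar at the median. The median is 11.12 on MUP 2 and 4.17 to 4.52 on the other 5 arrays.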

How the data were processed

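Liver RNA was measured on Clariom S mouse arrays. The authors deposited linear intensities, which the submitters' processing notes give as RMA values from Affymetrix Expression Console, with no version. The genome build behind the probe sets is not stated in any source used here. The table held 28846 rows, of which 6640 control rows were dropped and 22206 tested, with 0 columns left unused. Symbols came from the platform annotation for 19572 probe sets and from the paper's supplementary gene names for 38, and 2596 stayed unnamed. A listed gene was matched through an older name only where no current gene bears that name and 1 gene alone lists it. For genes with several probe sets, the set with the highest mean over all arrays was kept.

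Log2 intensities of all 9 arrays were fitted in 1 model with a mean per group, by limma 3.58.1 (R 4.3.3), using a moderated two-sided test whose prior variance followed mean intensity and Benjamini-Hochberg adjustment over all 22206 probe sets, for the contrast MUP minus WT. The script was tested on simulated data. A bound was given where at least 2 arrays of the dimmer group were at or below that array's negative control median. The labels do not tie arrays to litters, and their number, 3 per group, limits the precision.

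Named were the 12 largest stable rises and falls, defining markers, and up to 4 stable calls per list or up to 2 other calls. In some of the lists with no call, the member with the largest difference was named. Further genes were chosen after their values were seen, as were those said to be in no list. Members and lists were chosen with earlier results of these data known. Of 66 lists, 63 are described, and the clock, acute-phase and PPAR-alpha lists are left out. Alternatives were the MUP and WT arrays alone, a replicate block, array weights, dim probe sets left out, cyclic loess, median centring, no variance trend, the methods' Student's test and fits without arrays. Besides GAANNTTC, 16 motifs were searched in the promoters on both strands and are not described: short forms of the AP-1, STAT5, E-box, PPAR direct repeat, antioxidant response, NF-Y, D-box, HNF4, SREBP, p53, TATA, C/EBP, glucocorticoid receptor, Sp1 and YY1 elements, and TTANNTAA.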

Additional observations from a re-analysis of the deposited data

Results flagged for a closer look

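A skeletal muscle signal also appeared in an array outside the comparison. The median log2 intensity of the 32 muscle genes was 10.85 on HNK 3, against 4.17 to 4.46 on the WT arrays, and 11.12 on MUP 2. HNK 3 enters the comparison of MUP with WT only through the shared estimate of spread. Its origin was not tested.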

How the results depend on the processing

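Leaving out 1 array at a time gave 109 to 261 higher and 146 to 315 lower probe sets, against 320 and 474 in the full fit, with the fewest rises without WT 1 and the fewest falls without WT 3. Array weights gave 481 higher and 634 lower. The methods' t-test called 0 higher and 0 lower after Benjamini-Hochberg adjustment, with 1469 and 1778 at an unadjusted p under 0.05, where limma had 1736 and 2115. The other settings stayed within 1.5 times the full fit: the MUP and WT arrays alone gave 327 and 524, dim probe sets left out 430 and 586, cyclic loess 394 and 458, median centring 314 and 433, no variance trend 288 and 433, and both muscle-bearing arrays, MUP 2 and HNK 3, left out 270 and 347. A replicate block gave 342 higher and 525 lower. Same-numbered MUP and WT arrays correlated at -0.0623, -0.00206 and 0.0457 in their deviations, so they showed no shared deviation. Whether the animals were paired is not known. Of 111 called genes in the naming rule, 62 were stable. By definition those 62 were called in each fit that left out 1 MUP or WT array. They were also called under every other setting except the methods' t-test, and no named call reversed under any setting.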
